A study of Mus musculus with 10 samples.

Results

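Adult haemoglobin RNA was followed in mouse cerebellum and medulloblastoma through 5 genes of the red cell lineage. They are the alpha globin genes Hba-a1 and Hba-a2, the beta globin genes Hbb-bs and Hbb-bt, and Alas2, the gene of the erythroid form of the enzyme that starts haem synthesis. The genes were chosen by name, with earlier results of these data known. All 5 were among the 39769 genes of the deposited table, and all 5 were among the 15617 genes that passed a filter on low counts. Poly-A RNA of 10 libraries in 3 groups was sequenced. The NKP group held 3 libraries labelled medulloblastoma, of genotype Nestin-Cre Kmt2dfl/+ Ptch+/-, all at 4 months of age. The AKP group held 3 libraries labelled medulloblastoma, of genotype AtohI-Cre Kmt2dfl/+ Ptch+/-, taken at 2 months (AKP 1, AKP 2) or 4 months (AKP 3). The Ptch group held 4 control libraries from cerebellum of Ptch+/- mice, taken at 4 months (Ptch 1, Ptch 2) or 2 months (Ptch 3, Ptch 4). Every group carried the Ptch+/- allele, so no group was wild type. Nestin-Cre is active in neural stem and progenitor cells and Atoh1-Cre in granule neuron precursors. The NKP and AKP groups differed from the Ptch group in genotype and in tissue label together, so the effects of genotype and tissue cannot be told apart.

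Haemoglobin is a tetramer of alpha and beta globin chains, each holding a haem group that carries oxygen. Globin RNA is made in erythroid precursors of the bone marrow and spleen, and it persists in reticulocytes, young red cells that have lost their nucleus and circulate in the blood. Alas2 joins glycine and succinyl-CoA in the mitochondria of erythroid cells, and its paralogue Alas1 does the same in other cells. Globin RNA in whole tissue can come from blood held in its vessels, and some neurons and glia have also been described to make low levels of it. In tissue RNA, more cells of a type and more RNA per cell cannot be told apart. The tissue was homogenised whole, and the labels' protocol does not mention perfusion.

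The copies within each globin family are almost the same sequence, which bears on how far their separate values can be trusted. Hba-a1 (chr11:32283511-32284465, plus strand) and Hba-a2 (chr11:32296489-32297298, plus strand) each have 3 exons and a coding sequence of 429 bases. Hbb-bs (chr7:103826534-103828096, minus strand) and Hbb-bt (chr7:103812524-103813996, minus strand) each have 3 exons and a coding sequence of 444 bases. Within each pair the coding sequences were 99.77% identical in the GENCODE annotation of GRCm38, with C381T from Hba-a1 to Hba-a2 and C417T from Hbb-bs to Hbb-bt, counted from 1 at the A of the start codon. The stretches around these differences are shown with the differing base in capitals.
Hba-a1: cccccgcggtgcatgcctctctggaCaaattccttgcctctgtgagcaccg
Hba-a2: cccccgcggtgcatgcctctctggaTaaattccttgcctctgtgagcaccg
Hbb-bs: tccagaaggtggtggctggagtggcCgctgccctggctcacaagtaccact
Hbb-bt: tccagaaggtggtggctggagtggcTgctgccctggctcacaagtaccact
Of all 50-base windows of the transcript, the share absent from the transcripts of every other gene was 32.5% for Hba-a1, 13.1% for Hba-a2, 34.2% for Hbb-bs and 41.7% for Hbb-bt. For Alas2 (chrX:150547375-150570638, plus strand), with 11 exons and a coding sequence of 1764 bases, no window was shared. RSEM divides reads that fit several genes by estimation, so the split within a globin pair is less certain than the sum of the pair, and Alas2 is free of this limit.

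The start regions of the genes also differ between families, and they are shown because the members were read together. Given here are the 250 bases before the RefSeq start on GRCm38.p6, in the gene's direction, with matches to 4 short motifs in capitals. The motifs, searched on both strands, were the GATA motif of erythroid GATA factors (AGATAA or TGATAA, and the same ending in G, which are AGATAG as well as TGATAG), the core bound by KLF factors (CACCC), the CCAAT box (CCAAT) and the TATA box (TATAAA or TATAAG).
Hba-a1, chr11:32283422-32283671, plus strand: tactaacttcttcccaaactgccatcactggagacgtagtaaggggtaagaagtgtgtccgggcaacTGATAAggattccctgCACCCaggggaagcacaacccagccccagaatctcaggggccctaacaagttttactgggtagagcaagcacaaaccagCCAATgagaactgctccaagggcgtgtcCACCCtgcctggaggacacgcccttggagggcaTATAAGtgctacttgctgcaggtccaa
Hbb-bs, chr7:103827929-103828178, minus strand: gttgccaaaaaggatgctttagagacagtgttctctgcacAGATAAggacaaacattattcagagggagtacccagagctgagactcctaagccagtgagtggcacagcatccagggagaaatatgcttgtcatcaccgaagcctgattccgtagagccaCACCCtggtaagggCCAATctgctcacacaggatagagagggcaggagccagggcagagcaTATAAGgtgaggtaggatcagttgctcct
Hbb-bt, chr7:103813924-103814173, minus strand: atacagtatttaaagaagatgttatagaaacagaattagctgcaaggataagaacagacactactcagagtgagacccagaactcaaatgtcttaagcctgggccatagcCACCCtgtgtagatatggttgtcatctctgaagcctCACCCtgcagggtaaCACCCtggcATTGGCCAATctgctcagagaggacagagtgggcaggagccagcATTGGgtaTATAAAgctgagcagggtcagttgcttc
Alas2, chrX:150547167-150547416, plus strand: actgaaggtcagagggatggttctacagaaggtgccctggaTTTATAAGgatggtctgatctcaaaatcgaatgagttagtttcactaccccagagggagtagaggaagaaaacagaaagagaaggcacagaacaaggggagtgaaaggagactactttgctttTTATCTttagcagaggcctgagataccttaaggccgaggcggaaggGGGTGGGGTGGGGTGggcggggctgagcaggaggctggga
The Hba-a2 start region was identical to that of Hba-a1 over the 297 bases that both tables shared. GATA motifs were found once in Hba-a1, Hba-a2, Hbb-bs and Alas2 and not in Hbb-bt, and 26.5% of 32851 mouse promoters of this length held one. CACCC was present in all 5 regions, with 2 matches in each alpha gene, 1 in Hbb-bs and 3 each in Hbb-bt and Alas2, against 52.0% of promoters with a match. CCAAT was found in the 4 globin regions, 3 times in Hbb-bt, and not in Alas2, against 33.8% of promoters. A TATA match stood 27 to 30 bases before the start in the 4 globin genes, and Alas2 held 2 overlapping matches farther upstream, against 17.0% of promoters. In Hbb-bt, CCAAT matches on opposite strands adjoin, and the 3 Alas2 CACCC matches adjoin on the minus strand without sharing a base. These are matches of letters and were not tested as binding sites.

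Library totals ran from 12300430 to 19348991 counts, and no pair of libraries agreed within sampling noise. Closeness was measured by the chi-square per degree of freedom of a pair's counts, lower for closer libraries. NKP 3 was closer to Ptch 4 and Ptch 3 (3.82 and 5.36) than to NKP 2 and NKP 1 (15.2 and 16.7). AKP 1 was closer to NKP 1 (3.47) than to AKP 3 and AKP 2 (18.7 and 37.3). Some libraries did not follow their labels. Kmt2d, the floxed gene, stood at 33.2, 46.9 and 58.0 CPM (the counts of a gene relative to all counts of its library, scaled by TMM) in NKP 1 to 3 and at 34.3, 41.3 and 43.6 CPM in AKP 1 to 3, against 52.6 to 68.4 CPM in the 4 Ptch libraries, so the library labelled NKP 3 lay within the Ptch range. Ptch1 stood at 85.6 to 111 CPM in NKP, 55.5 to 90.7 CPM in AKP and 74.0 to 103 CPM in Ptch libraries. The sex label did not match Y-linked expression in Ptch 1, Ptch 3, NKP 3 and AKP 3. NKP 2 had both summed Y-linked expression (68.4 CPM) and Xist, an X-linked RNA typical of female cells (74.8 CPM). Xist stood at 10.2 to 15.0 CPM in Ptch 3, NKP 1 and AKP 1, at 5.38 CPM in AKP 3 and at 0.433 to 0.444 CPM in Ptch 4, NKP 3 and AKP 2. The cause was not tested. Mki67, a gene of dividing cells, and Atoh1, a gene of granule neuron precursors, were low in several libraries labelled medulloblastoma and highest in 2 Ptch libraries. Mki67 stood at 0.654, 0.719 and 11.8 CPM in NKP 1 to 3 and 0.575, 49.1 and 38.8 CPM in AKP 1 to 3, against 84.1, 80.4, 28.8 and 27.3 CPM in Ptch 1 to 4. Mki67 thus lay below every Ptch library in NKP 1, NKP 2, NKP 3 and AKP 1, all labelled medulloblastoma, and was under 1 CPM in NKP 1, NKP 2 and AKP 1. Groups are named here by their labels.

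The beta globin gene Hbb-bs was the most abundant of the 5 genes in every library. Its level was 1246, 660 and 379 CPM in NKP 1 to 3 and 1032, 1148 and 842 CPM in AKP 1 to 3, against 352, 348, 397 and 383 CPM in Ptch 1 to 4. All AKP libraries stood above all Ptch libraries, while the NKP libraries spread from the Ptch range to the highest level of the series. By rank of counts within a library, Hbb-bs was gene 63, 134 and 332 in NKP 1 to 3, and for AKP 1 to 3 it was gene 72, 67 and 95, against 313 to 378 in Ptch libraries. Hbb-bt, the other adult beta globin copy, stood at 244, 109 and 65.4 CPM in NKP 1 to 3 and 199, 253 and 169 CPM in AKP 1 to 3, against 51.4, 62.2, 73.4 and 72.3 CPM in Ptch 1 to 4. The order of libraries was similar to that of Hbb-bs, with NKP 3 inside the Ptch range.

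The alpha globin genes had the same layout. Hba-a1 stood at 567, 270.2 and 193 CPM in NKP 1 to 3 and 455, 476 and 405 CPM in AKP 1 to 3, against 165, 184, 187 and 202 CPM in Ptch 1 to 4. Hba-a2 stood at 407, 191 and 135 CPM in NKP 1 to 3 and 333, 342 and 311 CPM in AKP 1 to 3, against 135, 142, 151 and 143 CPM in Ptch 1 to 4. For both genes the 3 AKP libraries lay above every Ptch library, NKP 1 and NKP 2 did too, and NKP 3 lay within or at the edge of the Ptch values. Together the 4 globin genes held 0.232%, 0.121% and 0.0786% of all counts in NKP 1 to 3, and for AKP 1 to 3 0.191%, 0.214% and 0.170% in AKP 1 to 3, against 0.0743% to 0.0821% in the Ptch libraries.

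Alas2 was far less abundant than the globins, with 81 to 236 counts per library. Its level was 19.3, 12.7 and 7.67 CPM in NKP 1 to 3 and 13.4, 13.4 and 12.7 CPM in AKP 1 to 3, against 6.23, 5.22, 6.26 and 5.39 CPM in Ptch 1 to 4. Every NKP and every AKP library stood above every Ptch library. Alas2 is X-linked, and the Ptch libraries with near-absent Y-linked expression (Ptch 1 and Ptch 2) and those with it (Ptch 3 and Ptch 4) had like levels. Per kilobase of coding sequence, the mean level of Hbb-bs was 1716 CPM in NKP, 2269 CPM in AKP and 833 CPM in Ptch libraries, and that of Hba-a1 was 800.2, 1038 and 430.5 CPM in the same groups. On that scale Hba-a2 stood at 570, 766 and 333 CPM, Hbb-bt at 314, 466 and 146 CPM, and Alas2 at 7.49, 7.46 and 3.27 CPM in NKP, AKP and Ptch libraries. The order Hbb-bs, Hba-a1, Hba-a2, Hbb-bt, Alas2 was thus the same in the 3 group means.

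**Figure D1:**
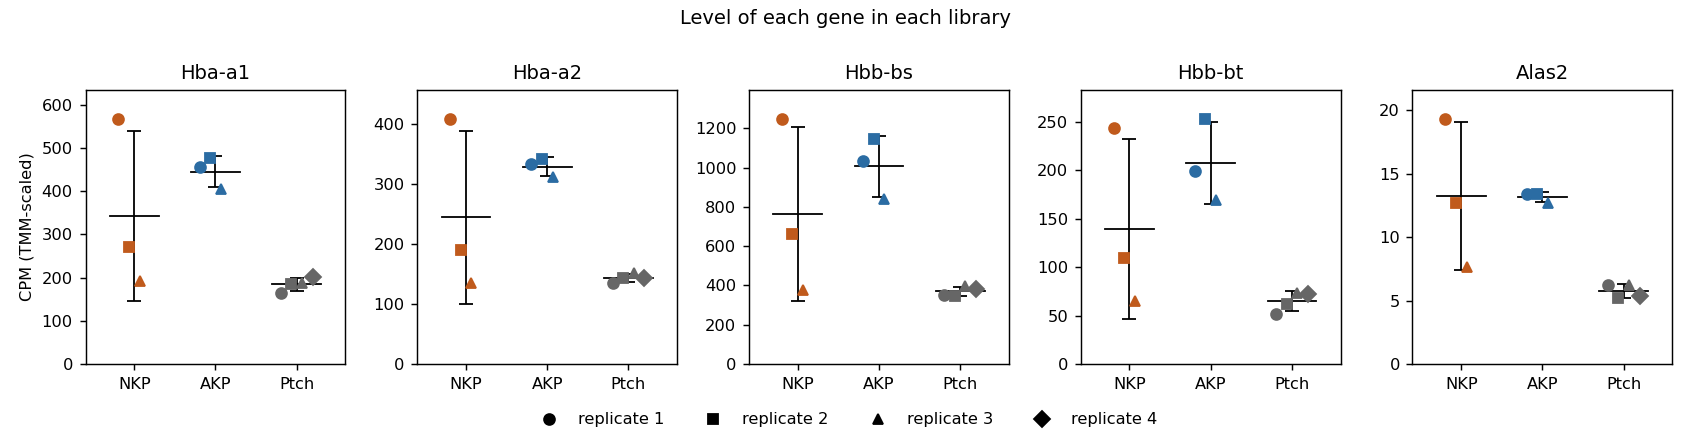
Level of each gene in TMM-scaled CPM (linear axis) in every library of the NKP, AKP and Ptch groups, with 1 point per library. The 3 AKP libraries lie above the 4 Ptch libraries for all 5 genes. NKP 3 lies within or at the edge of the Ptch range for the globin genes and above it for Alas2. NKP 1 is the highest library for every gene but Hbb-bt, where AKP 2 is.

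In the AKP libraries, haemoglobin RNA was more than 2-fold above the Ptch libraries. Hba-a1 (2.41-fold), Hbb-bs (2.72-fold) and Alas2 (2.28-fold) rose, and Hba-a2 and Hbb-bt had fold changes of 2.30 and 3.19 but did not pass the threshold. The test was edgeR's quasi-likelihood test with Benjamini-Hochberg adjustment over all 15617 genes at an adjusted p of 0.05, and 5.68% of all genes passed it in this comparison, 3.38% as higher and 2.3% as lower. Hba-a1 averaged 445 ± 36.5 CPM in AKP and 185 ± 15.2 CPM in Ptch libraries (SD, n = 3 and 4), a log2 fold change of 1.27 (SE 0.305, edgeR adjusted p = 0.0477). Hbb-bs averaged 1007 ± 155 CPM in AKP and 370.0 ± 23.8 CPM in Ptch libraries, a log2 fold change of 1.44 (SE 0.326, edgeR adjusted p = 0.0423). Alas2 averaged 13.2 ± 0.423 CPM in AKP and 5.78 ± 0.549 CPM in Ptch libraries, a log2 fold change of 1.19 (SE 0.241, edgeR adjusted p = 0.0231). The other pair lay just beyond the threshold.

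Hba-a2 averaged 328 ± 15.8 CPM in AKP and 143 ± 6.43 CPM in Ptch libraries, a log2 fold change of 1.20 (edgeR adjusted p = 0.0577). Hbb-bt averaged 207 ± 42.2 CPM in AKP and 64.8 ± 10.3 CPM in Ptch libraries, a log2 fold change of 1.67 (edgeR adjusted p = 0.0533). With the copies of each pair summed, which removes the uncertain split, the alpha sum had a log2 fold change of 1.24 (edgeR adjusted p = 0.0481) and the beta sum one of 1.48 (edgeR adjusted p = 0.0419), and both passed. The groups did not overlap for 5 of the 5 genes, where 12.9% of all genes had every AKP library above every Ptch library. By log2 fold change the 5 genes ranked between 23 and 102 of 15617, and their median was 1.27 against -0.02 over all genes. The calls rest on few libraries, for the 5 genes as for all genes. Without any 1 of Ptch 1, Ptch 2, Ptch 4, AKP 2 or AKP 3 the number of the 5 called was 0. Over all genes 1, 1, 183, 1 and 0 were then called, in the same order. Without Ptch 3, NKP 2 or AKP 1 the number was 1 of the 5, beside 321, 553 and 1459 of all genes. Without NKP 1 or NKP 3 it was 5, beside 1250 and 1056 of all genes. With only the 2-month libraries, or with the length and GC correction given further on, the number was also 0, beside 0 and 16 of all genes. The log2 fold changes stayed above 0 in 26 of 26 alternatives for each of the 5 genes. Without Ptch 1 and Ptch 2 the count was 0, with log2 fold changes of 1.16 to 1.51. The count was also 0 without the 4 libraries whose sex label did not match, with 1.25 to 1.76. Over all genes 0 were called in each of these fits as well. Without NKP 1, NKP 2 and AKP 1, which leaves NKP 3 alone in its group, the log2 fold changes were 1.18 to 1.70.

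In the NKP libraries the same genes had higher means than in the Ptch libraries, but the libraries differed widely and no gene passed. Hba-a1 averaged 343 ± 197 CPM, Hba-a2 244 ± 144 CPM, Hbb-bs 762 ± 442 CPM, Hbb-bt 139 ± 93.0 CPM and Alas2 13.2 ± 5.84 CPM in NKP libraries (SD, n = 3). The log2 fold changes against Ptch were 0.89 for Hba-a1, 0.77 for Hba-a2, 1.04 for Hbb-bs, 1.10 for Hbb-bt and 1.18 for Alas2, with edgeR adjusted p between 0.218 and 0.264. No gene of the 15617 passed here (0%), and the smallest edgeR adjusted p over all genes was 0.218. At an unadjusted p of 0.05 the count was 5 of 5, all higher, beside 17% of all genes in either direction and 6.79% as higher. DESeq2 called Alas2 alone of the 5 (adjusted p = 0.00809), among 406 genes called. Alas2 ranked 7 of 15617 by p and was the only one of the 5 whose NKP libraries all lay above the Ptch libraries, which held for 6.96% of all genes.

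The spread within the NKP group followed the library and not the gene. Relative to the Ptch mean, the 5 genes stood at 2.85 to 3.76 times in NKP 1, 1.33 to 2.19 times in NKP 2 and 0.944 to 1.33 times in NKP 3. The AKP libraries all stood at 2.18 to 3.90 times the Ptch mean. The coefficient of variation of the summed globin level was 58.8% in NKP, 12.4% in AKP and 6.64% in Ptch libraries. Without NKP 1 the log2 fold changes of NKP against Ptch were 0.33 for Hba-a1, 0.19 for Hba-a2, 0.49 for Hbb-bs, 0.43 for Hbb-bt and 0.82 for Alas2. With NKP 3 as the only NKP library, after NKP 1, NKP 2 and AKP 1 were left out, they were 0.07, -0.08, 0.04, 0.02 and 0.42 for the same genes. Without NKP 3 they were 1.18, 1.07, 1.37, 1.44 and 1.46 for the same genes.

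**Figure D2:**
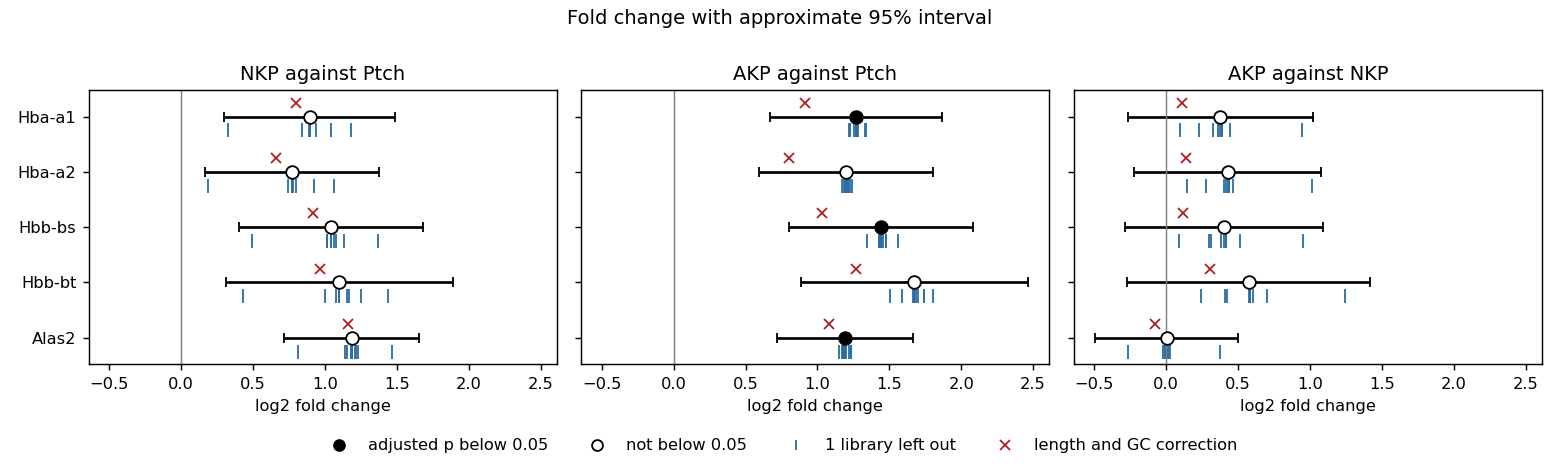
Log2 fold change of each gene in NKP against Ptch, AKP against Ptch and AKP against NKP libraries, with bars for the 95% interval from the standard error of the edgeR fit, filled points past the threshold, blue ticks for fits with 1 library left out and crosses for the length and GC correction. Values lie between 0.77 and 1.18 for NKP against Ptch and between 1.19 and 1.67 for AKP against Ptch, and every AKP against NKP interval includes 0.

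AKP and NKP libraries were compared directly as well, and no difference passed. The log2 fold change of AKP against NKP was 0.38 for Hba-a1 (approximate 95% interval -0.26 to 1.02), 0.43 for Hba-a2 (-0.22 to 1.08), 0.40 for Hbb-bs (-0.28 to 1.09) and 0.58 for Hbb-bt (-0.27 to 1.42). For Alas2 it was 0.0040 (-0.49 to 0.50). The edgeR adjusted p lay between 0.514 and 0.996, and 0.0064% of all genes, 1 gene, passed. At an unadjusted p of 0.05 the count was 0 of 5, beside 16.9% of all genes. DESeq2 also called 0 of the 4 genes to which it gave an adjusted p (none to Alas2), beside 230 of all genes. Without NKP 1, NKP 2 and AKP 1, which leaves NKP 3 alone in its group, the log2 fold changes were larger. They were 1.18 for Hba-a1, 1.27 for Hba-a2, 1.38 for Hbb-bs, 1.68 for Hbb-bt and 0.76 for Alas2. The globin intervals reach more than 2-fold, so a difference of that size lies within the error of these libraries.

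The make-up of the globin RNA was compared within libraries, where scaling has no part. Alpha globin made up 39.5%, 37.5% and 42.5% of globin counts in NKP 1 to 3, and for AKP 1 to 3 39.0%, 36.9% and 41.4%, against 42.6%, 44.4%, 41.8% and 43.1% in Ptch 1 to 4. The 95% Wilson intervals of these shares, which cover counting error only, were 1.08 to 2.03 percentage points wide. The share was 39.1% ± 2.30 in AKP and 43.0% ± 1.06 in Ptch libraries (SD, n = 3 and 4), and the groups did not overlap. The exact two-sided permutation p was 0.0571, the smallest that 3 against 4 libraries allow, and 0.229 after adjustment over the 12 ratio tests. The Hbb-bs share of beta globin counts was 83.0% ± 0.944 in AKP and 85.2% ± 1.44 in Ptch libraries, also without overlap and with the same exact permutation p of 0.0571 and adjusted value of 0.229. In NKP libraries it was 84.9% ± 1.14, and the Hba-a1 share of alpha globin counts was 58.6% ± 0.353 in NKP, 57.5% ± 0.852 in AKP and 56.3% ± 1.55 in Ptch libraries.

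Alas2 counts per 1000 globin counts were 7.83, 10.3 and 9.92 in NKP 1 to 3, while AKP 1 to 3 had 6.64, 6.05 and 7.34, against 8.86, 7.08, 7.75 and 6.72 in Ptch 1 to 4. Every AKP library was below every NKP library, with means of 6.68 ± 0.646 in AKP and 9.35 ± 1.33 in NKP libraries (SD, n = 3 each). The exact permutation p of that difference was 0.1, the smallest that 3 against 3 libraries allow, and 0.229 after adjustment. The AKP and NKP ranges each overlapped the Ptch range. Over the series, Alas2 thus kept within 6.05 and 10.3 per 1000 globin counts while the globin level itself ran from 704 to 2464 CPM.

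**Figure D3:**
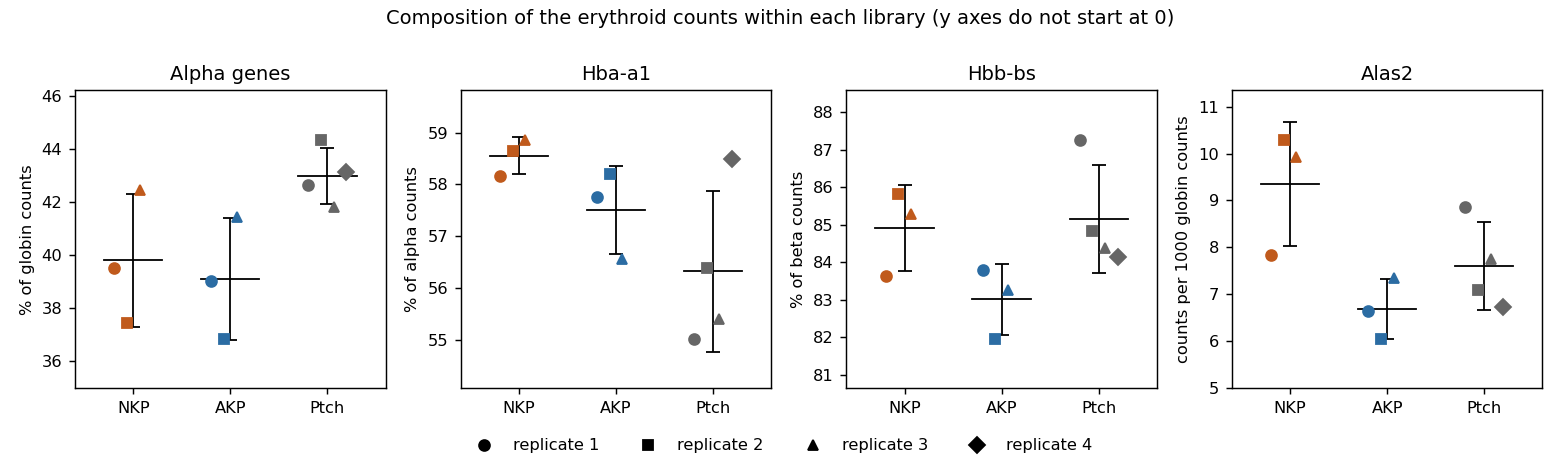
Composition of haemoglobin RNA in each library of the NKP, AKP and Ptch groups: alpha share of globin counts, Hba-a1 share of alpha counts and Hbb-bs share of beta counts (percent), and Alas2 per 1000 globin counts, with group means. Alpha shares lie between 36.9% and 44.4%, with the AKP libraries below the Ptch libraries.

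Short transcripts as a class were higher in AKP than in Ptch libraries, and the globin transcripts are short. Genes whose longest transcript was 500 to under 700 bases, the class of Hba-a1, Hba-a2 and Hbb-bs by the length used, had a median log2 fold change of 0.41 in AKP against Ptch, and 20.8% of the 183 were called higher. In the class of Hbb-bt (700 to under 1000 bases, 479 genes) the median was 0.37 and 18.2% were called higher. In the class of Alas2 (2000 to under 4000 bases, 6063 genes) the median was 0.01 and 2.28% were called higher, while genes of 8000 bases and over had a median of -0.28. In NKP against Ptch the medians of these 4 classes were 0.09, 0.10, 0.02 and -0.05. The 5 genes stood above the 90th percentile of their class in both comparisons.

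With the transcript length and GC trends of every library removed, the log2 fold changes of AKP against Ptch were 0.91 for Hba-a1, 0.80 for Hba-a2, 1.03 for Hbb-bs, 1.27 for Hbb-bt and 1.08 for Alas2. None of the 5 passed then, with edgeR adjusted p between 0.0614 and 0.158, and 16 of all genes were called. The corresponding values of NKP against Ptch were 0.80, 0.66, 0.92, 0.96 and 1.16.

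**Figure D4:**
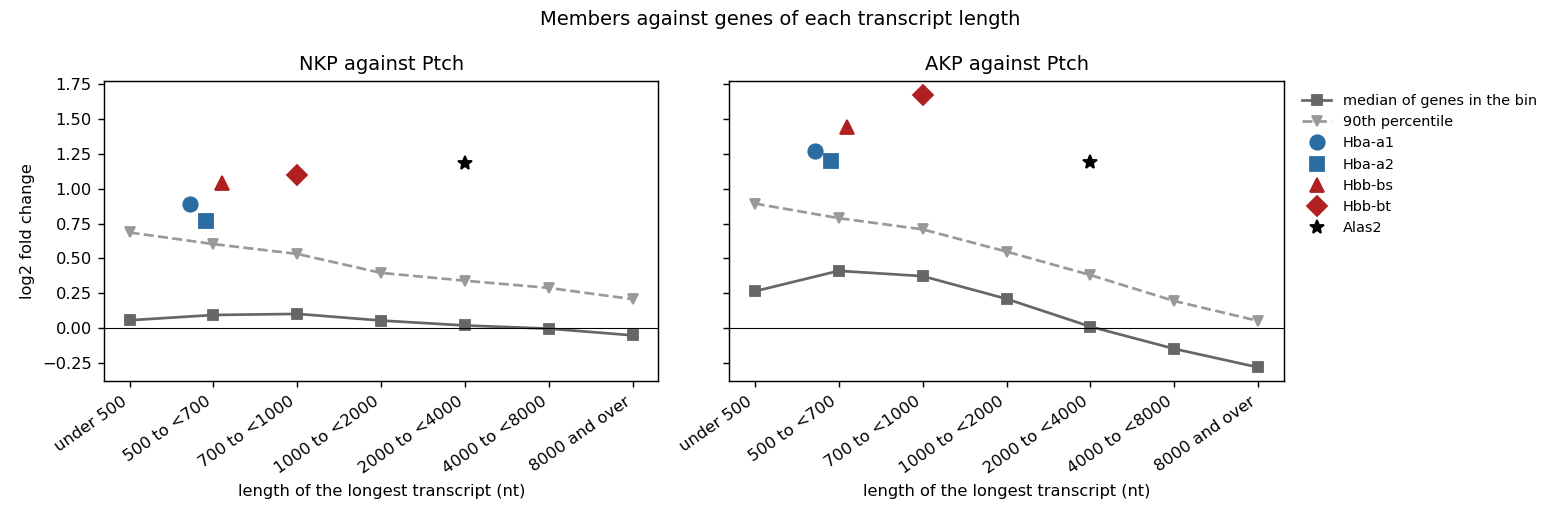
Log2 fold change against the length of the longest annotated transcript (nucleotides) for NKP and AKP against Ptch: grey lines give the median and 90th percentile of all genes in each length class, and the other symbols the 5 genes. The AKP medians run from 0.41 in the 500 to under 700 class to -0.28 at 8000 and over, and all 5 genes lie above the dashed line in both panels.

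Several embryonic globin and erythroid genes had few or no counts, while other genes of the same lists were well covered. Hba-x, Hbb-bh1 and Hbb-bh2 had no count in any of the 10 libraries. Of the 3 further globin genes that passed the filter on low counts, 0 were called in any comparison. These were Mb (myoglobin of muscle), Ngb (neuroglobin of neurons) and Cygb (cytoglobin, found in many tissues). Gata1, the leading transcription factor of erythroid cells, had 1 count in all libraries together and Gfi1b, another erythroid factor, 1 count. Klf1, which drives beta globin transcription, had 48 counts in all. In the same list Tfrc, the transferrin receptor that many cell types use, had 14203 counts, Lmo2 2808, Epor, the erythropoietin receptor, 622 and Tal1, a factor of blood and endothelial cells, 341. Of the red cell membrane genes, Epb42, which anchors the membrane skeleton, had 6 counts in all libraries, and Slc4a1, the anion exchanger of the red cell membrane, had 281. Rhag, Kel and Cldn13 had none.

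Of 29 listed genes of the red cell membrane and maturation in the table, 17 passed the filter. In AKP against Ptch 2 rose and 1 fell, at a median log2 fold change of 0.13. In NKP against Ptch 0 were called with a median of 0.11. The list was not tested as a set. Bnip3l, which clears mitochondria from maturing red cells and is also active in other cells, rose by a log2 fold change of 0.38 in AKP (edgeR adjusted p = 0.0330). Bpgm, which makes the 2,3-bisphosphoglycerate that lowers the oxygen affinity of haemoglobin, rose by 0.37 (edgeR adjusted p = 0.0484). Sptb, the erythroid beta spectrin that neurons also express, fell to 174 ± 24.6 CPM in AKP libraries, against 235 ± 13.6 CPM in Ptch libraries (log2 fold change -0.44, edgeR adjusted p = 0.0376). Car2, a carbonic anhydrase of red cells and glia, had the smallest p of this list in NKP against Ptch, with 273 ± 26.7 CPM in NKP and 192 ± 39.2 CPM in Ptch libraries, and did not pass (edgeR adjusted p = 0.218).

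Among 14 genes of erythroid transcription and signalling, 10 passed the filter. In AKP against Ptch 1 rose and 1 fell, and the median was -0.06. Lmo2, a bridging factor of the GATA1 complex that endothelial cells also express, had a log2 fold change of 0.48 (edgeR adjusted p = 0.0424). Runx1, a factor of blood stem cells and microglia, fell by 2.04 on the log2 scale (edgeR adjusted p = 0.0397), at 0.247 ± 0.182 CPM in AKP and 1.05 ± 0.212 CPM in Ptch libraries. In NKP against Ptch 0 of the 10 were called, with a median of -0.06.

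Of the 12 haem synthesis genes, all of which passed the filter, Alas2 was the only one called in AKP against Ptch, and 0 were called in NKP against Ptch. The medians were 0.12 and 0.07. Alas1, the housekeeping counterpart of Alas2, had log2 fold changes of 0.02 in NKP and -0.02 in AKP. Uros and Urod, which make and decarboxylate uroporphyrinogen, had 0.38 (edgeR adjusted p = 0.0649) and 0.25 (edgeR adjusted p = 0.0765) in AKP and did not pass. Of 18 genes of haem breakdown, haemoglobin scavenging and iron, 16 passed the filter and 3 rose in AKP against Ptch, with a median of 0.21, and 0 were called in NKP, with a median of 0.10. Fth1, the ferritin heavy chain that stores iron, stood at 3203 ± 473 CPM in AKP and 1895 ± 204 CPM in Ptch libraries (log2 fold change 0.76, edgeR adjusted p = 0.0209). Blvra, which turns biliverdin into bilirubin, had 0.42 (edgeR adjusted p = 0.0431), and Hmox2, the constitutive haem oxygenase, 0.32 (edgeR adjusted p = 0.0449). Hmox1, the inducible haem oxygenase, had log2 fold changes of -0.05 in NKP and 0.01 in AKP, and the scavenger genes Hp and Hpx did not pass the filter.

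Markers of vessels stood higher beside the haemoglobin genes. The summed level of 15 brain endothelial markers was 488 to 598 CPM in NKP and 494 to 557 CPM in AKP libraries, against 356 to 443 CPM in Ptch libraries, without overlap. In AKP against Ptch 3 of the 15 rose, namely Ly6c1 (log2 fold change 0.69, edgeR adjusted p = 0.0209), Ly6a (0.70, edgeR adjusted p = 0.0220) and Mfsd2a, a lipid transporter of the blood-brain barrier (0.69, edgeR adjusted p = 0.0220). The median of the list was 0.24 in AKP and 0.45 in NKP, where 0 were called. The summed level of 10 pericyte and vascular smooth muscle markers was 254 to 327 CPM in NKP and 241 to 296 CPM in AKP libraries, against 169 to 231 CPM in Ptch libraries. Tagln, an actin-binding protein of smooth muscle, was the only one of them called in AKP (log2 fold change 1.10, edgeR adjusted p = 0.0315). In NKP 3 the vessel sums stood above the Ptch range, at 488 and 254 CPM, while the 5 haemoglobin genes summed to 780 CPM, inside the Ptch range of 710 to 814 CPM. At an unadjusted p of 0.05, edgeR's test passed 13 of the 15 endothelial and 7 of the 10 pericyte markers in NKP against Ptch, beside the 17% of all genes. The part of vessel content in the haemoglobin result was not tested.

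Few markers of other blood cells passed the filter, and none was called by edgeR's test. Of 10 platelet markers 4 passed the filter, of 11 neutrophil and myeloid precursor markers 3, and of 10 lymphocyte markers 2, and 0 of these passed the test in any comparison. Neutrophil sums were 3.23 to 12.5 CPM in NKP and 9.29 to 16.9 CPM in AKP libraries, against 2.27 to 8.91 CPM in Ptch libraries. The AKP and Ptch sums did not overlap, and in some libraries Lcn2 made up most of the sum. Lcn2 gave 11.1 of 16.9 CPM in AKP 2, 9.65 of 13.4 CPM in AKP 3 and 5.14 of 8.91 CPM in Ptch 3. In AKP 1 it gave only 2.63 of 9.29 CPM. In NKP against Ptch its log2 fold change was -0.90. S100a8 and S100a9 were at most 4.17 CPM in any library. S100a9 was higher in every AKP than in every Ptch library, as 12.9% of all genes were. Its log2 fold change was 1.30, and it did not pass (edgeR adjusted p = 0.242). The AKP and Ptch libraries overlapped for S100a8 and for Lcn2. The 3 tested neutrophil markers (S100a8, S100a9 and Lcn2) had median log2 fold changes of 1.07 in NKP and 1.30 in AKP against Ptch, near those of the haemoglobin genes, and lay above 0 for 2 of 3 in NKP and 3 of 3 in AKP. At an unadjusted p of 0.05, 0 of the 3 passed in NKP and 1 (Lcn2) in AKP. The part of blood content in the haemoglobin result was not tested. Of 12 microglia markers 0 were called, with medians of -0.36 in NKP and 0.20 in AKP. In the lists of choroid plexus, granule neuron and cycling granule precursor markers 0 were called, and the cycling list had medians of -2.91 in NKP and -0.65 in AKP. Of 10 tested hypoxia response genes, 2 rose in AKP against Ptch, with a median of 0.32. They were Bnip3, a mitophagy receptor (0.48, edgeR adjusted p = 0.0231), and Pgk1, a glycolytic enzyme (0.39, edgeR adjusted p = 0.0318). In NKP against Ptch 0 of them were called, with a median of 0.28.

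**Figure D5:**
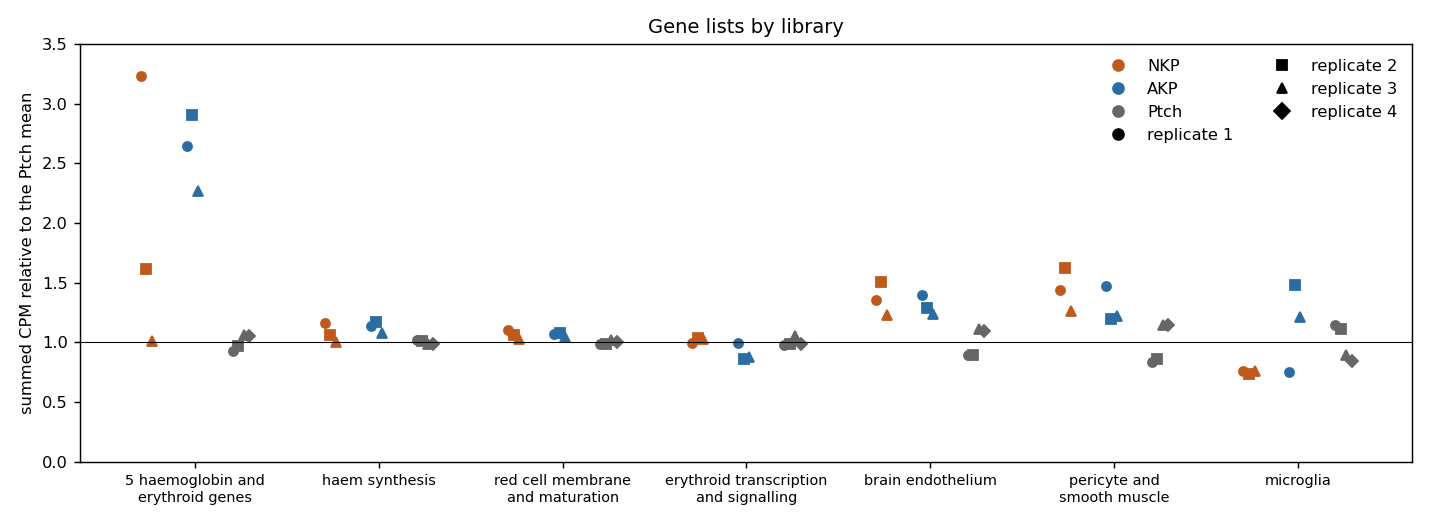
Summed level (CPM) of the haemoglobin genes and of marker lists in each library, divided by the mean of the Ptch libraries. The endothelial and pericyte sums lie above the Ptch libraries in all NKP and AKP libraries, whereas the haemoglobin sum of NKP 3, at 780 CPM, lies among the Ptch libraries.

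The genes whose log2 CPM over the 10 libraries lay nearest to the mean of the 5 haemoglobin genes were Uqcr10 (Pearson r = 0.994), Get3 (0.990), Bcap31 (0.988), Atp5c1 (0.985) and Ssu72 (0.983). These correlations describe 10 libraries that share groups, scaling and length trends, so they are given without a p. Uqcr10, a small subunit of respiratory complex III, stood at 236, 175 and 137 CPM in NKP 1 to 3 and 204, 215 and 207 CPM in AKP 1 to 3, against 134 to 140.1 CPM in Ptch libraries. As for the summed globins, NKP 1 was the highest library and NKP 3 lay inside the Ptch values, over a smaller range. The log2 fold changes of these 5 genes in AKP against Ptch were 0.60, 0.39, 0.35, 0.36 and 0.52, and all 5 passed, with edgeR adjusted p between 0.0232 and 0.0416. Their choice by likeness to the haemoglobin genes makes these calls a description.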

How the data were processed

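Poly-A RNA of 10 libraries was prepared with a TruSeq kit, per the labels' protocols. The submitters' processing notes name Trim Galore, STAR and RSEM and the build GRCm38, with versions and read length not given in the sources used here. As deposited by the authors, the data are 1 table of whole numbers per gene. They were treated as RSEM expected counts, rounded by the authors before deposit, going by the named tools and the differing library totals, since the labels do not state the unit. The whole numbers were used as deposited, and the effect of any rounding was not tested. Genes were filtered with filterByExpr by group, scaled by TMM and put to the robust quasi-likelihood F test of edgeR 4.0.16 in R 4.3.3, in 1 fit of the 10 libraries without covariates, with Benjamini-Hochberg adjustment over 15617 genes and a threshold of 0.05. An SE is the size of the log2 fold change divided by the square root of F, and intervals are 1.96 SE to each side. With so few libraries these intervals are approximate and narrower than the F test itself would give. Ratios within a library were compared by exact two-sided permutation tests of group means. The nearest genes were taken on log2 CPM with a prior count of 2.

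The genes and the 16 gene lists were chosen with earlier results of these data known. Named were the 5 genes, the 5 genes nearest in pattern, up to 2 genes of smallest p per list and comparison, genes at or near 0, and Kmt2d and Ptch1. Further named genes (Mfsd2a, Bpgm, Hmox2, Alas1, Hmox1, Mki67 and other genes outside this rule) were chosen after their values were seen. Nothing in the labels says that libraries of a group are separate animals, and each p-value speaks only of the spread among the libraries, which may be technical.

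Alternatives were RLE and upper quartile scaling, DESeq2 1.42.0, other low-count filters, no robust dispersion, fits of 2 groups, sex label or age as covariate, age-matched libraries, summed copies, a block for the replicate number and each library left out. Chosen after seeing the data were leaving out 4 libraries whose Y-linked expression goes against the label, leaving out Ptch 1 and Ptch 2, leaving out NKP 1, NKP 2 and AKP 1, and a correction by lowess trends (span 0.3, prior count 1) with the length and GC content of the longest GENCODE transcript, known for 95.6% of tested genes. The procedure was tested on simulated data. Start regions are from RefSeq on GRCm38.p6, with all 5 genes matched.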

Additional observations from a re-analysis of the deposited data

How the results depend on the processing

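In AKP against Ptch 3 of the 5 genes passed. The count was 5 with upper quartile scaling, DESeq2, no robust dispersion or only the compared groups in the fit. Beside it stood 994, 1940, 800 and 1211 of all genes. The count was 1 with no low-count filter or with sex label or age as a covariate, beside 977, 231 and 731 of all genes. It was 0 with age-matched libraries, without the 4 libraries whose Y-linked expression goes against the label, or without Ptch 1 and Ptch 2. No gene of all those tested was called in these 0-count fits. With the length and GC correction the count was also 0, beside 16 of all genes. With a library left out in turn it was 0 to 5, beside 0 to 1459 of all genes. With summed copies the alpha sum, the beta sum and Alas2 all passed, which counts as 5 when each sum stands for both of its genes. It was 3 with RLE scaling and 4 with a filter at a mean CPM of 1, where Hba-a2 alone did not pass. The replicate block gave 0, with edgeR adjusted p between 0.111 and 0.173, beside 0 of all genes. Deviations of same-numbered libraries from their group means correlated from -0.358 to 0.365. With so few libraries per group, some of which did not follow their labels, these values cannot show whether the numbers pair libraries. Log2 fold changes over all alternatives were 0.91 to 1.33 for Hba-a1, 0.80 to 1.25 for Hba-a2, 1.03 to 1.58 for Hbb-bs, 1.27 to 1.80 for Hbb-bt and 1.08 to 1.34 for Alas2. Over all genes 887 were called, against 0 to 1940 under the alternatives; 59.5% of the calls were higher, and 74.6% of 994 with upper quartile scaling.

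In NKP against Ptch 0 of the 5 passed, and 1 (Alas2) did with DESeq2, age as a covariate or age-matched libraries. Over all genes 0 were called, against 406 with DESeq2, 933 with age as a covariate and 2574 with age-matched libraries. Without NKP 1, NKP 2 and AKP 1, which leaves NKP 3 alone in its group, the log2 fold change of Hba-a2 was -0.075. In AKP against NKP the log2 fold changes of the 5 genes were then 0.76 to 1.68. The AKP against NKP difference of Alas2 (0.0040) was -0.0044 with no low-count filter, -0.030 with age as a covariate, -0.031 with age-matched libraries, -0.24 without the 4 libraries named above, -0.077 with the length and GC correction, and -0.26 to 0.37 with a library left out. With a library left out, the AKP minus NKP difference in alpha share ran from -1.88 to 0.617 percentage points (-0.703 with all), and the NKP minus Ptch difference in Hbb-bs share from -0.695 to 0.466 (-0.237 with all). The causes were not tested. Groups left with 1 library were assumed to vary like the others. Alas2, at 81 to 236 counts, is the gene most limited by depth.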
